A study of Mus musculus with 6 samples.

Results

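The Notch pathway genes described here were 10 genes, read from liver RNA sequencing of mice with and without SHMT2 in hepatocytes. They comprised 4 receptors (Notch1, Notch2, Notch3 and Notch4), 3 ligands (Jag1, Jag2 and Dll4) and 3 target genes (Hes1, Hey1 and Heyl), and were found by matching these symbols to the mouse Ensembl gene identifiers of the deposited count table. All 10 were among the 49671 genes of the table, and all 10 passed the filter on low counts that left 16089 genes for testing. The question was how the level of each differed between the genotypes.

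The controls, labelled WT, were 3 SHMT2 fl/fl mice with floxed alleles and no Cre. The 3 SHMT2 HKO mice, labelled KO, carried the same alleles and a Cre driven by the Albumin promoter, which deletes the gene in hepatocytes. SHMT2 is the mitochondrial serine hydroxymethyltransferase, which turns serine into glycine and a one-carbon unit. Per the study's methods, the mice were male and on a C57BL/6J background. All 6 mice of both groups had been given the AMLN diet, which supplies fructose, cholesterol and much fat. It began at an age of 4 weeks and lasted 18 weeks, so the mice were 22 weeks old and no liver is from a mouse kept on chow. RNA was taken from whole liver, so a lower value can come from fewer cells of a type or from less RNA per cell, which cannot be told apart here. Each library is taken as 1 mouse, and the p-values measure the spread between these samples.

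Notch receptors are single-pass proteins that are cut at the membrane after they bind a Jagged or Delta-like ligand on a neighbouring cell. The freed intracellular part enters the nucleus, joins the DNA-binding protein RBPJ and a Mastermind co-activator, and turns on genes of the Hes and Hey families, which encode transcriptional repressors. In liver the pathway is known for its part in the formation of bile ducts, where JAG1 and NOTCH2 are the genes mutated in Alagille syndrome, and for its activity in blood vessels and their supporting cells.

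Counts on genes ranged from 23090837 to 34089722 per library. Levels are given as CPM, the count of a gene relative to the size of its library, scaled to the library size with the TMM factors of edgeR, which lay between 1.13 and 1.21 in fl/fl and between 0.802 and 0.984 in HKO livers and so enter every fold change. Shmt2 itself was at 94.6, 109 and 93.9 CPM in fl/fl mice 1, 2 and 3 and at 24.9, 28.3 and 19.3 CPM in HKO mice 1, 2 and 3, with a log2 fold change of -2.04 (SE 0.16, adjusted p = 0.000639, edgeR quasi-likelihood test). The hepatocyte markers, which define the labelled tissue, were present in every liver. Of 16089 genes tested, 4663 (29.0%) had an adjusted p under 0.05, of which 2651 (16.5%) were lower and 2012 (12.5%) higher in HKO livers.

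The start sites of these genes are shown by 3 receptor promoters, because the genotypes differed in Notch3 and Notch4 with no overlap and less in Notch2. The sequences are from RefSeq on GRCm38.p6, printed 5′ to 3′ on the strand of the gene and ending before its outermost annotated start: Notch2 at chr3:98013288-98013526 on the plus strand, Notch3 at chr17:32166891-32167140 on the minus strand and Notch4 at chr17:34564045-34564267 on the plus strand. Capitals mark the GC box GGGCGG on either strand, a motif chosen after the sequences had been seen.
Notch2: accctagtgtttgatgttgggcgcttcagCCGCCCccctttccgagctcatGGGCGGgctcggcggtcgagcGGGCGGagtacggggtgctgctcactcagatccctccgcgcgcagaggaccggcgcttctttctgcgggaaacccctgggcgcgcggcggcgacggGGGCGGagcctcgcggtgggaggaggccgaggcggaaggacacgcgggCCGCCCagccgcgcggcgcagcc
Notch3: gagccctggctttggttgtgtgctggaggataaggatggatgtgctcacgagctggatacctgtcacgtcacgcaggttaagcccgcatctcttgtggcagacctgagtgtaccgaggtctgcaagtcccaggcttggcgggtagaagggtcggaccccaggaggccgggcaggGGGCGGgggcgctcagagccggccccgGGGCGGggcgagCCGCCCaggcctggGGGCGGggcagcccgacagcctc
Notch4: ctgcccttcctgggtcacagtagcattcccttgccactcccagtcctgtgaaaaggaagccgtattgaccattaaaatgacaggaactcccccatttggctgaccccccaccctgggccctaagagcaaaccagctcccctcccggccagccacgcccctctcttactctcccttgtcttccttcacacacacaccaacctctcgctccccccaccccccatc

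Of the 10 genes, 7 had a promoter entry and Hes1, Hey1 and Heyl had none. The RefSeq windows of 250 bases end at the RefSeq start, which is not always the GENCODE start: those of Notch1 and Jag2 lie inside the GENCODE gene, and those of Notch2, Notch4 and Jag1 run past its start. Counts are therefore given for the 3 windows printed and for that of Dll4, which end before the GENCODE start. On either strand, the GC box was found 5 times in Notch2, 4 times in Notch3, 2 times in Dll4 and 0 times in Notch4. It was present in 32.7% of all 32851 RefSeq windows of 250 bases. The core letters bound by RBPJ, TGGGAA (21.6% of all windows), the longer form GTGGGAA that contains them (5.42%) and the E-box CACGTG (6.02%) were in none of them. The GC content was 74.1% in the 239 bases of Notch2, 68.8% in the 250 of Notch3, 65.6% in the 250 of Dll4 and 59.2% in the 223 of Notch4. Of the receptors that fell, Notch3 thus had several GC boxes in its window and Notch4 had 0.

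Across the pathway genes, 6 of 10 fell in HKO livers and 0 rose: Notch3, Notch4, Jag1, Jag2, Hey1 and Heyl. Beside this stand the 16.5% of all genes tested that were called lower. The 10 genes were chosen with earlier results of these data known, so setting them beside all genes is not a test. For 7 of 10, the 6 named and Notch2, every HKO liver was below every fl/fl liver, which held for 4029 of all genes tested (25.0%). The median log2 fold change was -0.80 over the 10 genes and 0.03 over all genes tested. The summed level of the 10 genes was 142, 155 and 151 CPM in fl/fl mice 1, 2 and 3 (149 ± 6.83, SD, n = 3) and 80.3, 86.5 and 123 CPM in HKO mice 1, 2 and 3 (96.6 ± 23.1, SD, n = 3). HKO mouse 3 was thus the HKO liver nearest to the fl/fl livers, and the spread among HKO livers was wider than among fl/fl livers. The ERCC spike-in RNAs made up 1.47, 1.84 and 1.42% of the counts in fl/fl mice 1, 2 and 3. In HKO mice 1, 2 and 3 they made up 2.75, 2.31 and 1.35%, so HKO mouse 3 was below every fl/fl liver. Without TMM and with scaling to the ERCC spike-in RNAs, the median of all genes moved by -0.42 and -0.72 on the log2 scale. Relative to that median, each of the 10 genes was below it under every scaling tried, except Notch1 with ERCC scaling, which was 0.083 above it.

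**Figure D1:**
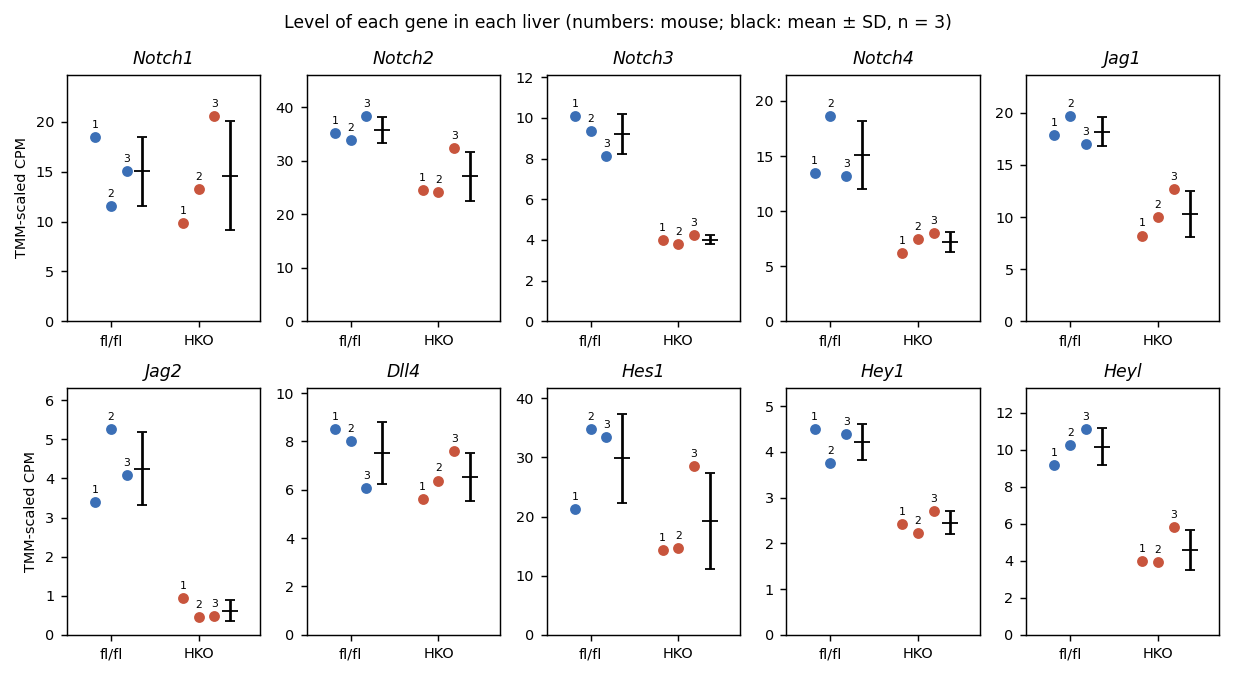
Level of each of the 10 Notch pathway genes in each liver, in TMM-scaled CPM on an axis from 0, with the mouse number above each point and, in black, the mean and the SD (n = 3 mice). The groups overlap for Notch1, Dll4 and Hes1, and every HKO liver is below every fl/fl liver for the other 7 genes.

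Among the ligands, Jag2 had the largest fall of the 10 genes. Jag2, a Jagged ligand (ENSMUSG00000002799, chr12:112907819-112929776, minus strand), had 139, 140 and 157 counts in fl/fl mice 1, 2 and 3 and 22, 9 and 12 counts in HKO mice 1, 2 and 3. This was 3.40, 5.27 and 4.10 CPM (4.25 ± 0.943, SD, n = 3) against 0.934, 0.456 and 0.472 CPM (0.621 ± 0.271, SD, n = 3). All HKO livers were low, with no overlap. The level in HKO was 14.6% of that in fl/fl, a log2 fold change of -2.76 (SE 0.36, adjusted p = 0.00188), and 1.45% of all genes tested had a lower log2 fold change. The HKO values rest on few counts, and Jag2 was the 1 gene of the 10 that a filter of at least 10 counts in every sample removed.

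Jag1, the Jagged ligand of bile duct development (ENSMUSG00000027276, chr2:137081456-137116644, minus strand), also fell, and by less. It was at 17.9, 19.7 and 17.0 CPM in fl/fl mice 1, 2 and 3 and at 8.23, 9.98 and 12.7 CPM in HKO mice 1, 2 and 3. HKO mouse 3 was the highest of the HKO livers and was still below each fl/fl liver. The mean went from 18.2 ± 1.40 to 10.3 ± 2.24 CPM (SD, n = 3), which is 56.6% of the fl/fl level, with a log2 fold change of -0.82 (SE 0.18, adjusted p = 0.0118). With scaling to the ERCC RNAs its adjusted p was 0.051.

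Dll4, a Delta-like ligand best known from the endothelium of sprouting vessels (ENSMUSG00000027314, chr2:119325784-119335962, plus strand), did not pass the test. Its values of 8.51, 8.01 and 6.08 CPM in fl/fl mice 1, 2 and 3 overlapped those of 5.60, 6.38 and 7.60 CPM in HKO mice 1, 2 and 3. The log2 fold change was -0.21 (SE 0.20, adjusted p = 0.486). Reads over 214 exonic bases that Dll4 shares with Gm14207 could belong to either gene, since the use of strand in counting is not given in the sources used here. Gm14207 itself had at most 19 counts in a library. For this overlap and those below, such counts do not show how many shared reads were left out of counting.

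Of the receptors, Notch3 and Notch4 fell. Notch3, the receptor known from vascular smooth muscle cells and pericytes (ENSMUSG00000038146, chr17:32120820-32166852, minus strand), was at 10.1, 9.33 and 8.14 CPM in fl/fl mice 1, 2 and 3 and at 3.99, 3.80 and 4.25 CPM in HKO mice 1, 2 and 3. Here HKO mouse 3 lay with the other HKO livers. The mean went from 9.19 ± 0.988 to 4.01 ± 0.227 CPM (SD, n = 3), 43.7% of the fl/fl level, with a log2 fold change of -1.19 (SE 0.17, adjusted p = 0.00269). Its antisense neighbour Gm17276, which shares 488 exonic bases with it, had at most 15 counts in a library.

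Notch4, the receptor known from endothelial cells (ENSMUSG00000015468, chr17:34564268-34588503, plus strand), was at 13.5, 18.7 and 13.2 CPM in fl/fl mice 1, 2 and 3 and at 6.24, 7.50 and 7.99 CPM in HKO mice 1, 2 and 3. The lowest fl/fl liver was above the highest HKO liver. The mean went from 15.1 ± 3.08 to 7.24 ± 0.903 CPM (SD, n = 3), 47.9% of the fl/fl level, with a log2 fold change of -1.06 (SE 0.19, adjusted p = 0.00567).

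Notch2, the receptor with a part in bile duct formation (ENSMUSG00000027878, chr3:98013527-98150361, plus strand), did not pass the test although its groups did not overlap. It was at 35.2, 33.9 and 38.5 CPM in fl/fl mice 1, 2 and 3 and at 24.7, 24.3 and 32.4 CPM in HKO mice 1, 2 and 3. HKO mouse 3 was close to the fl/fl range and HKO mice 1 and 2 were further below it. The log2 fold change was -0.40 (SE 0.14, adjusted p = 0.0663), and without HKO mouse 3 it was -0.57 with an adjusted p of 0.00695. With each liver left out in turn it ranged from -0.57 to -0.33, with adjusted p up to 0.210. Notch2 was called in 4 of 15 alternatives. With ERCC scaling the groups overlapped. Its neighbour Gm42820, with 541 shared exonic bases, had at most 32 counts in a library.

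Notch1, the founding member of the receptor family in mammals (ENSMUSG00000026923, chr2:26457903-26516663, minus strand), had nearly equal means in the 2 genotypes. Its values were 18.4, 11.6 and 15.0 CPM in fl/fl mice 1, 2 and 3 and 9.89, 13.3 and 20.6 CPM in HKO mice 1, 2 and 3. The lowest and the highest of the 6 livers were both HKO. The mean was 15.0 ± 3.42 in fl/fl and 14.6 ± 5.47 CPM in HKO livers (SD, n = 3), with a log2 fold change of -0.04 (SE 0.28, adjusted p = 0.924). Notch1 shares 1068 exonic bases with 0610009E02Rik and 414 with Gm13568, to which reads could also belong. The sign of this value turned when fl/fl mouse 1, HKO mouse 1 or HKO mouse 2 was left out.

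**Figure D2:**
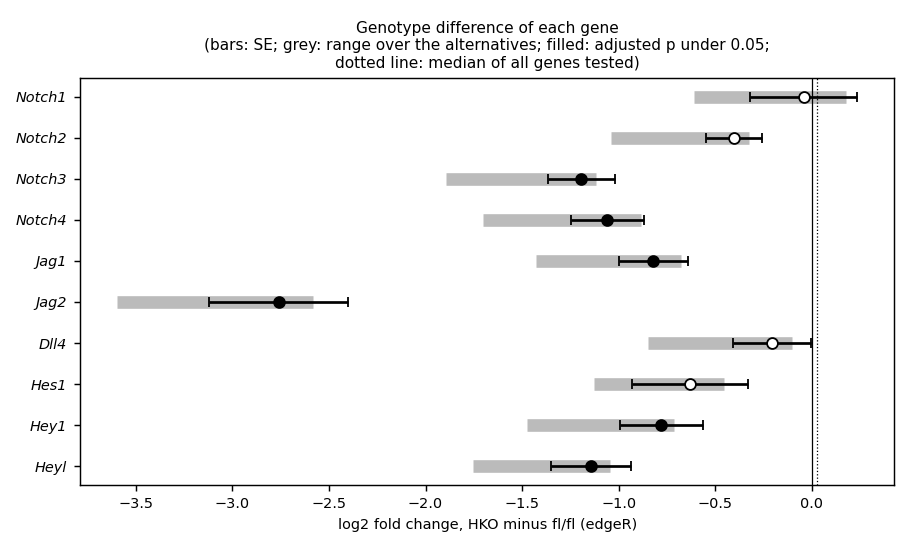
Log2 fold change (HKO minus fl/fl) of each of the 10 genes from the edgeR fit, with bars of 1 SE, grey bands for the range over the alternative settings, filled points for an adjusted p under 0.05 and a dotted line for the median of all genes tested at 0.03. Jag2 is furthest left at -2.76, and Notch1 and Dll4, at -0.04 and -0.21, are nearest to 0.

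Of the target genes, Heyl and Hey1 fell. Heyl, a Hey-family repressor (ENSMUSG00000032744, chr4:123233556-123249875, plus strand), was at 9.15, 10.2 and 11.1 CPM in fl/fl mice 1, 2 and 3 and at 3.99, 3.95 and 5.83 CPM in HKO mice 1, 2 and 3. HKO mouse 3 was again the highest HKO liver. The mean went from 10.2 ± 0.986 to 4.59 ± 1.07 CPM (SD, n = 3), 45.1% of the fl/fl level, with a log2 fold change of -1.14 (SE 0.21, adjusted p = 0.00587).

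Hey1, a repressor of the same family (ENSMUSG00000040289, chr3:8663359-8667256, minus strand), was lower in each HKO liver, but its call was the least stable of the 6. It was at 4.50, 3.76 and 4.38 CPM in fl/fl mice 1, 2 and 3 and at 2.42, 2.23 and 2.72 CPM in HKO mice 1, 2 and 3. The mean went from 4.22 ± 0.397 to 2.45 ± 0.246 CPM (SD, n = 3), 58.2% of the fl/fl level. The log2 fold change was -0.78 (SE 0.21, adjusted p = 0.0283). The adjusted p was 0.101 without fl/fl mouse 1, 0.0602 without fl/fl mouse 2, 0.110 without fl/fl mouse 3 and 0.0813 without HKO mouse 2. It was also 0.0692 with the replicate number as a block, 0.069 with ERCC scaling and 0.0588 without a filter on low counts.

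Hes1, the Hes-family repressor most often used as a readout of Notch signalling (ENSMUSG00000022528, chr16:30064384-30067796, plus strand), varied widely within each genotype. It was at 21.2, 34.8 and 33.5 CPM in fl/fl mice 1, 2 and 3 and at 14.4, 14.7 and 28.5 CPM in HKO mice 1, 2 and 3. The value of HKO mouse 3 lay inside the fl/fl range and those of HKO mice 1 and 2 below it. The mean was 29.8 ± 7.50 in fl/fl and 19.2 ± 8.08 CPM in HKO livers (SD, n = 3), with a log2 fold change of -0.63 (SE 0.30, adjusted p = 0.154). Without HKO mouse 3 the log2 fold change was -1.06 (adjusted p = 0.011).

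To compare levels between genes, CPM were divided by the exonic length of each gene in kilobases. On this scale Hes1 was the most abundant of the 10 genes in both genotypes, at 14.6 CPM per kb in fl/fl and 9.43 CPM per kb in HKO livers. In fl/fl livers the mean levels then ran from Notch2 at 3.32 and Jag1 at 3.12 through Heyl at 1.99, Dll4 at 1.96, Notch4 at 1.88, Hey1 at 1.29, Notch3 at 1.14 and Notch1 at 1.05 to Jag2 at 0.611 CPM per kb. Neighbours in this order whose livers overlapped were Notch2 and Jag1, Heyl and Dll4, Dll4 and Notch4, Hey1 and Notch3, and Notch3 and Notch1. In HKO livers the order after Hes1 was Notch2 at 2.51, Jag1 at 1.77, Dll4 at 1.69, Notch1 at 1.02, Notch4 at 0.898, Heyl at 0.897, Hey1 at 0.752, Notch3 at 0.496 and Jag2 at 0.0891 CPM per kb. The overlapping neighbours there were Jag1 and Dll4, Notch1 and Notch4, Notch4 and Heyl, and Heyl and Hey1. Exonic length is the union of all annotated exons, so the order between close genes depends on which isoforms the livers used.

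As shares of the 3 ligands per length, Jag1 took 55.0% ± 2.10 in fl/fl and 49.5% ± 2.28 in HKO livers (SD, n = 3), and Jag2 took 10.7% ± 1.99 and 2.66% ± 1.57. Dll4, whose own level did not pass the test, took 34.3% ± 3.67 of the ligand total in fl/fl and 47.8% ± 0.906 in HKO livers. Of the receptor total, Notch2 held 45.0% ± 3.62 and 51.1% ± 2.45, Notch1 held 14.3% ± 3.18 and 20.3% ± 3.94, Notch4 held 25.4% ± 5.04 and 18.4% ± 1.85, and Notch3 held 15.4% ± 1.43 and 10.2% ± 1.40. Of the target total, Hes1 held 81.2% ± 4.01 and 84.4% ± 2.88, Hey1 held 7.52% ± 2.33 and 7.24% ± 1.80, and Heyl held 11.3% ± 1.68 and 8.38% ± 1.08. Notch2 thus remained the most abundant receptor per length, and Jag1 and Dll4 came to nearly equal shares in HKO livers.

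**Figure D3:**
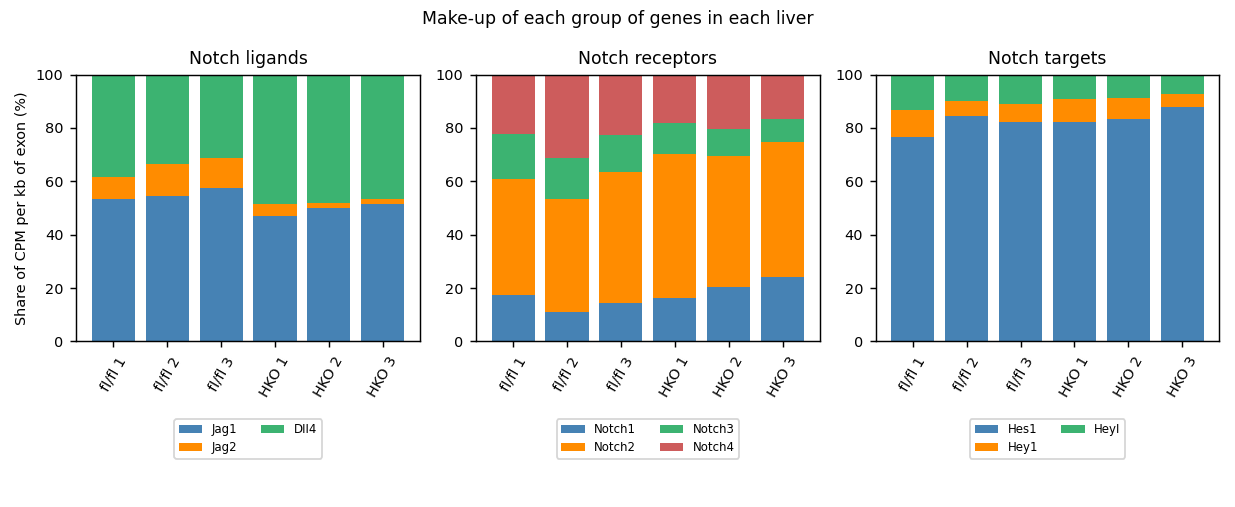
Share of each gene in the summed CPM per kb of its role (ligands, receptors or targets), in percent, as 1 stacked bar from 0 to 100 for each liver. The Dll4 part of the ligand total is larger in each HKO liver (mean 47.8%) than in each fl/fl liver (mean 34.3%), and the Jag2 part is smaller.

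Whether the genes of a role moved by different amounts was tested on the difference in log2 CPM of each pair within a liver. This difference depends on library scaling only through the prior count of 1, which weighs most at low counts such as those of Jag2. There were 12 pairs, and with 3 livers against 3 the exact permutation test (two-sided) cannot go below p = 0.1, so no pair can pass. In 8 of 12 pairs the genotypes did not overlap, each with the exact p = 0.1 (0.15 adjusted over the 12 pairs). Among all pairs of the 16089 genes tested, 47.5% did not overlap either, so the count of 8 sets these genes apart little, and the values that follow describe these livers. The largest shift was that of Jag2 against Dll4. This difference was -1.32, -0.60 and -0.57 in fl/fl mice 1, 2 and 3 and -2.54, -3.71 and -3.91 in HKO mice 1, 2 and 3, a change of -2.56. The difference of Jag1 minus Jag2 went from 2.39, 1.90 and 2.04 to 3.09, 4.35 and 4.65, a change of 1.92. Jag1 minus Dll4 changed by -0.64, Notch1 minus Notch3 by 1.10, Notch1 minus Notch4 by 0.97, Notch2 minus Notch3 by 0.77, Notch2 minus Notch4 by 0.63 and Hes1 minus Heyl by 0.48. The pairs that overlapped were Notch1 and Notch2 (0.33, exact p = 0.2), Hey1 and Heyl (0.39, exact p = 0.2), Notch3 and Notch4 (-0.14, exact p = 0.7) and Hes1 and Hey1 (0.10, exact p = 0.9).

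The rest of the pathway was read from 52 other genes, of which 45 had enough counts to be tested. Of these 45, 11 fell, where 16.5% of all genes tested did, and 3 rose, where 12.5% of all genes tested did. The other 31 did not pass the test, and the median log2 fold change was -0.17, against 0.03 over all genes tested. Every HKO liver was below every fl/fl liver for 20 of the 45, against 25.0% of all genes. These lists were also chosen with earlier results of these data known, so the shares of all genes are no test of them. Named in each group are up to 4 genes past the threshold by size of change and the most abundant gene.

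Ubiquitin ligases and endocytic regulators, which control how ligands and receptors are taken up and degraded, held most of the genes that fell. Of the 12, 6 fell and 0 rose, against 16.5% and 12.5% of all genes tested, with a median of -0.68. Dtx1, a Deltex ubiquitin ligase that binds the Notch intracellular part, went from 9.49 ± 1.80 to 1.71 ± 1.18 CPM (SD, n = 3; log2 fold change -2.45, adjusted p = 0.00598). Numbl, an adaptor related to the Notch antagonist Numb, went from 11.4 ± 1.26 to 3.08 ± 0.257 CPM (-1.88, adjusted p = 0.000871). Neurl1a, a Neuralized ligase (-1.74, adjusted p = 0.00588), and Dtx3, of the Deltex family (-1.70, adjusted p = 0.00123), fell as well. Mib2, a Mind bomb ligase for the ligands and the most abundant of the group in CPM, was at 54.2 ± 1.04 and 47.9 ± 2.03 CPM and did not pass the test (adjusted p = 0.217).

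In the nuclear complex and its co-repressors, 3 of 13 genes fell and 1 rose, against 16.5% and 12.5% of all genes tested. The median log2 fold change was -0.13. Rbpj, the DNA-binding partner of the cleaved receptor, was at 20.0, 18.4 and 19.1 CPM in fl/fl mice 1, 2 and 3 and at 12.9, 12.8 and 12.9 CPM in HKO mice 1, 2 and 3 (log2 fold change -0.58, SE 0.12, adjusted p = 0.00894). The 3 HKO livers were nearly equal in Rbpj, HKO mouse 3 included. The Mastermind co-activators Maml2 (7.54 ± 0.714 to 2.89 ± 0.726 CPM, -1.37, adjusted p = 0.00472) and Maml3 (5.28 ± 0.660 to 2.61 ± 0.955 CPM, -1.01, adjusted p = 0.0376) fell. Ncor1, a co-repressor, was called higher, at 73.0 ± 0.641 and 95.4 ± 9.39 CPM (0.38, adjusted p = 0.0388), while its log2 fold change was -0.03 without TMM and -0.29 with ERCC scaling.

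Of the 10 receptor-cleaving proteases and their subunits, 1 fell and 1 rose, against 16.5% and 12.5% of all genes tested. The median log2 fold change was 0.01. Aph1c, a subunit of γ-secretase, went from 3.61 ± 0.709 to 1.46 ± 0.479 CPM (-1.29, adjusted p = 0.0195). Psen2, a presenilin and so a catalytic subunit of γ-secretase, went from 153 ± 2.69 to 235 ± 50.4 CPM (0.62, adjusted p = 0.0294), and was at -0.20 with ERCC scaling. Furin, the convertase of the receptor precursor and the most abundant of the group in CPM, was at 262 ± 20.0 and 359 ± 44.5 CPM (0.46, adjusted p = 0.051). The calls of Aph1c, Psen2, Maml3 and Ncor1 each depended on single livers: without fl/fl mouse 2, for example, their adjusted p was 0.0766, 0.0978, 0.118 and 0.125.

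Glycosyltransferases add the sugars that tune the binding of ligands. Against 16.5% lower and 12.5% higher of all genes tested, 1 of the 5 fell and 0 rose. This was Mfng, a Fringe enzyme, which went from 5.92 ± 0.568 to 2.46 ± 0.380 CPM (-1.27, adjusted p = 0.00444). Rfng, the most abundant Fringe gene in CPM, was at 21.5 ± 1.51 and 25.1 ± 1.83 CPM (adjusted p = 0.197). Of the 5 other ligands 1 was tested, Dll1, at 5.95 ± 0.235 and 4.50 ± 1.02 CPM (-0.40, adjusted p = 0.195).

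Among 7 further genes of the Hes and Hey families and feedback, 4 were tested. Of these, 0 fell and 1 rose, where 16.5% and 12.5% of all genes tested did. Hes6, a Hes-family gene whose product is known to oppose HES1, was at 37.8, 37.2 and 38.5 CPM in fl/fl mice 1, 2 and 3 and at 118, 105 and 67.3 CPM in HKO mice 1, 2 and 3. Its direction was opposite to that of Hey1 and Heyl, and HKO mouse 3 was again nearest to the fl/fl livers. The log2 fold change was 1.35 (SE 0.20, adjusted p = 0.00274), and 0.50 (adjusted p = 0.479) with ERCC scaling.

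**Figure D4:**
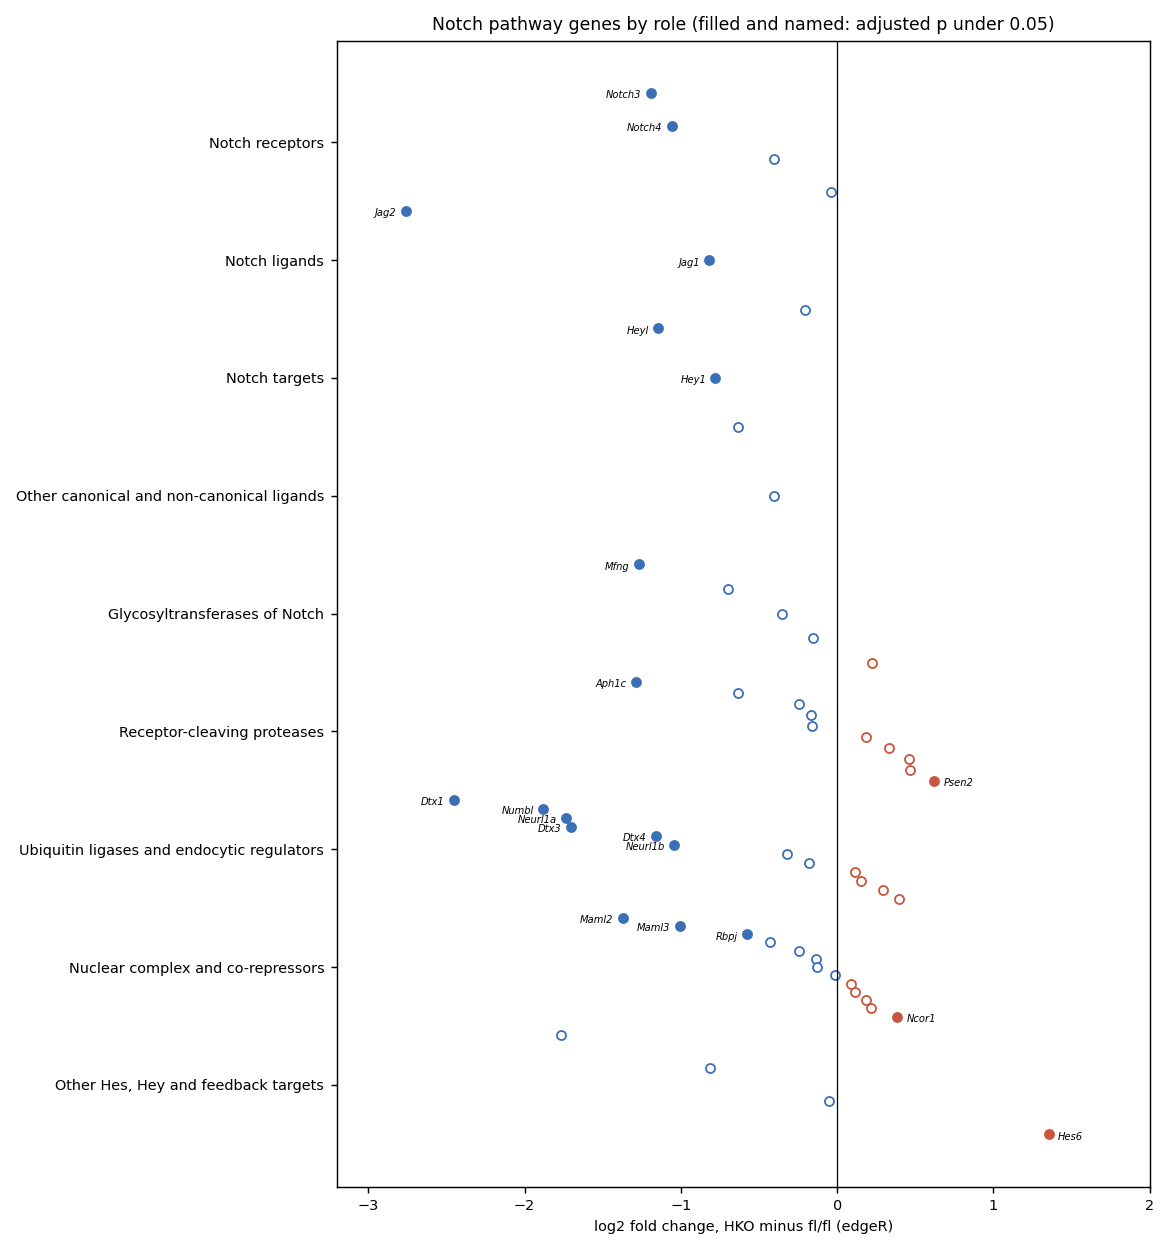
Log2 fold change (HKO minus fl/fl) of each tested Notch pathway gene, grouped by role, with filled and named points for an adjusted p under 0.05. The ubiquitin ligases and endocytic regulators hold 6 of the 11 other pathway genes that fell, and Hes6, Psen2 and Ncor1 are the 3 that rose. Of all genes tested, 16.5% fell and 12.5% rose.

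Marker genes of several liver cell types moved with genotype in the same livers. The marker lists, too, were chosen with earlier results of these data known. The summed level of 12 cholangiocyte markers was 1165, 1423 and 1113 CPM in fl/fl mice 1, 2 and 3 and 202, 190 and 344 CPM in HKO mice 1, 2 and 3, a ratio of 0.199. Spp1 made up most of this sum in each liver. It was at 876, 944 and 792 CPM in fl/fl mice 1, 2 and 3 and at 104, 105 and 215 CPM in HKO mice 1, 2 and 3. Of the 12 markers, 11 fell and 1 rose, where 16.5% of all genes tested fell and 12.5% rose. Epcam went from 66.3 ± 18.8 to 7.60 ± 3.41 CPM (-3.12, adjusted p = 0.00123) and Krt19 from 43.2 ± 20.1 to 5.48 ± 0.805 CPM (-2.97, adjusted p = 0.00137). The marker that rose was Onecut1, named after its values had been seen. It went from 7.25 ± 0.490 to 38.8 ± 15.0 CPM (SD, n = 3; log2 fold change 2.42, adjusted p = 0.00127). No cholangiocyte marker was at 0 in any liver.

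The 9 markers of mural cells and smooth muscle, from which Notch3 was left out, summed to 157 to 174 CPM in fl/fl and 94.1 to 148 CPM in HKO livers (ratio 0.711, with 0.538 without TMM and 0.468 with ERCC scaling). Of the 9, 2 were lower and 0 higher, where 16.5% of all genes tested were lower and 12.5% higher. Mcam, an adhesion molecule of pericytes and endothelium, went from 16.7 ± 3.41 to 9.12 ± 1.77 CPM (-0.87, adjusted p = 0.0162, and 0.0631 without fl/fl mouse 2). Rgs5, the most abundant of the list in CPM, was at 66.1 ± 8.13 and 44.3 ± 13.7 CPM and did not pass the test (adjusted p = 0.0762). The 12 stellate cell and fibroblast markers summed to 1422 to 1533 CPM in fl/fl and 391 to 923 CPM in HKO livers (ratio 0.431). Of these, 7 were lower, Lum and Pdgfra among them, and 1 was higher. Col1a1 and Col3a1, both lower, had the largest means in fl/fl livers (382 and 454 CPM) and so weigh most in this sum. Col1a1 was at 46.3, 90.0 and 180 CPM in HKO mice 1, 2 and 3. It was called in 10 of 15 alternatives (adjusted p = 0.121 without a filter on low counts), and Col3a1 in 14. The marker that rose was Reln, from a mean of 30.7 to 60.1 CPM (adjusted p = 0.0105). Lrat (log2 fold change 0.03), Colec11 (-0.08), Dcn (-0.60) and Thy1 (-1.10) did not pass the test. Members of this list thus did not all move together.

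The 12 endothelial markers summed to 397 to 405 CPM in fl/fl and 381 to 464 CPM in HKO livers (ratio 1.09). Without TMM and with ERCC scaling this ratio was 0.814 and 0.680. Of the 12, 1 was lower and 2 were higher, where 16.5% of all genes tested were lower and 12.5% higher. The sinusoidal genes Clec4g (17.9 ± 7.27 to 68.7 ± 2.52 CPM, 1.93, adjusted p = 0.0032) and Stab2 (41.9 ± 2.43 to 61.3 ± 3.02 CPM, 0.55, adjusted p = 0.00781) rose. With ERCC scaling Clec4g was at 1.16 (adjusted p = 0.104) and Stab2 at -0.15. Tie1, a receptor tyrosine kinase of endothelium, fell from 37.7 ± 4.30 to 25.5 ± 3.68 CPM (-0.57, adjusted p = 0.0229, 0.089 with ERCC scaling and 0.090 without fl/fl mouse 2). Eng, a co-receptor for TGF-β and the most abundant of the list in CPM, was at 150 ± 15.6 and 120 ± 18.6 CPM and did not pass the test (adjusted p = 0.154), so members of the list did not move together.

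The 10 hepatocyte markers summed to 53455 to 65607 CPM in fl/fl and 70259 to 101609 CPM in HKO livers (ratio 1.55, and 0.881 with ERCC scaling). Of these, 0 were lower and 4 higher. Beside this and the next counts stand the 16.5% of all genes tested that were lower and the 12.5% that were higher. Of 10 macrophage markers 4 were lower and 3 higher (ratio 0.972, and 0.590 with ERCC scaling), so the ratio joins opposite changes. Clec4f rose from 15.5 ± 7.68 to 111 ± 39.0 CPM (adjusted p = 0.00391). Trem2 fell from 31.4 ± 7.61 to 9.26 ± 5.90 CPM (adjusted p = 0.0192, and 0.0665 without fl/fl mouse 3). Csf1r, the most abundant in CPM, fell from 107 ± 3.87 to 66.7 ± 10.6 CPM (adjusted p = 0.00931). Of 10 lymphocyte markers 5 were lower and 0 higher (ratio 0.303, and 0.181 with ERCC scaling). Of 7 neutrophil markers 4 were tested and 1 was lower (ratio 0.683, and 0.431 with ERCC scaling), with Ly6g and Mpo at 0 in every fl/fl liver. HKO mouse 3 was the HKO liver nearest to the fl/fl livers in the sums of cholangiocyte, mural, stellate and hepatocyte markers, as in the sum of the 10 Notch genes. The part of these cell types in the levels of the Notch genes was not tested.

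**Figure D5:**
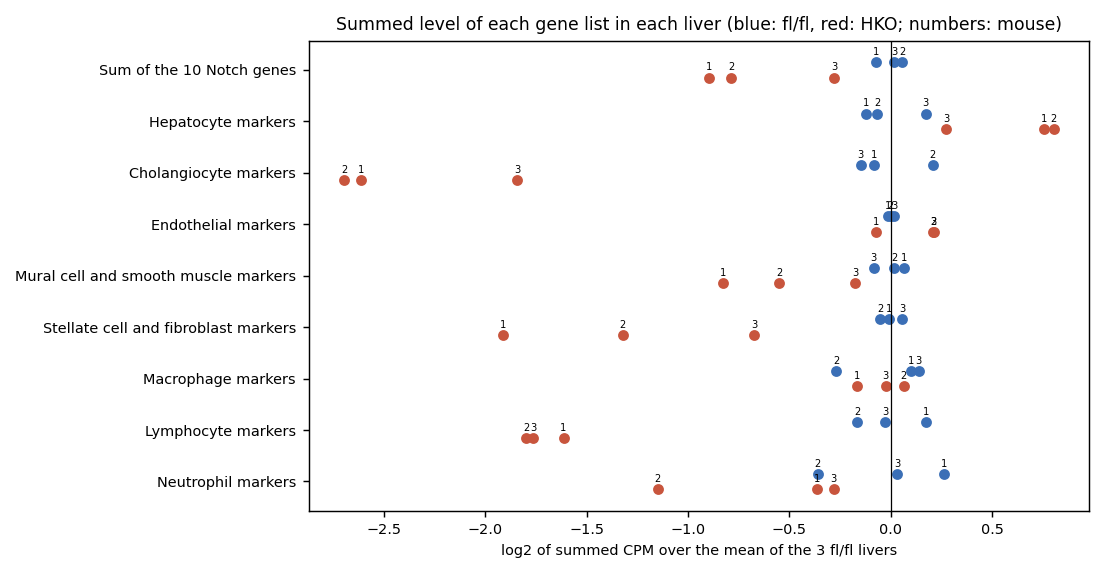
Summed CPM of the 10 Notch genes and of each cell type marker list in each liver, as log2 of the ratio to the mean of the 3 fl/fl livers, with the mouse number above each point (fl/fl in blue, HKO in red). The cholangiocyte sum, most of it Spp1, is far to the left in all HKO livers (190 to 344 CPM against 1113 to 1423 CPM in fl/fl livers). The genotypes overlap for the sums of endothelial, macrophage and neutrophil markers.

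The tested genes whose pattern over the 6 livers was most like that of each Notch gene that fell were found among 12284 genes with a mean of at least 1 log2 CPM. The measure was the root mean square difference of log2 CPM, each gene centred on its own mean, so 0 is an identical pattern. For Notch3 these were Syt9 (0.0601), Plscr3 (0.0795) and Gpx8 (0.0812), and for Notch4 they were Lzts2 (0.0612), Cracr2b (0.0646) and Bag2 (0.0701). For Jag1 they were Syde1 (0.0546), Actg1 (0.0597) and Anxa4 (0.0619), for Hey1 Cdr2l (0.0474), H2-M3 (0.0487) and Card9 (0.0694), and for Heyl Map3k14 (0.0423), Abca9 (0.0672) and Rcan3 (0.0678). Jag2 had no gene as close among these, the nearest being Ttll10 (0.185), Trim46 (0.190) and Lama5 (0.233). Its own mean of 0.70 log2 CPM is under the limit of 1, so genes at its level were not compared. Its HKO values also rest on few counts. None of the 10 Notch genes was allowed as a match, so likeness among them is given by the pairs within each role.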

How the data were processed

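Liver RNA from 3 SHMT2 fl/fl and 3 SHMT2 HKO mice on the AMLN diet was sequenced. The submitters' processing notes name Trimmomatic 0.36, STAR 2.5.2b, featureCounts of Subread 1.5.2 and GRCm38 (mm10). The values deposited by the authors are raw counts per gene, without normalization. The use of strand is not given in the sources used here. The 92 ERCC rows entered neither library sizes nor tests. Symbols and positions are from GENCODE M21 on GRCm38, and 345 of 49671 gene identifiers had no symbol.

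Genes were filtered with filterByExpr, scaled by TMM and compared by the quasi-likelihood F test of edgeR 4.0.16 in R 4.3.3 (robust, two-sided), with Benjamini-Hochberg adjustment over 16089 genes. Every adjusted p of a gene is from this test unless another is named. Log2 CPM carry a prior count of 1. Lists were described by counts and medians. DESeq2 1.42.0, limma-voom (limma 3.58.1), other scalings and filters, a replicate block and leaving out each liver were alternatives. Genes named from a pathway list were up to 4 past the threshold, by size of change, plus the most abundant gene. Those past the threshold had a mean log2 CPM of 0 or more. From the marker lists, not every gene that fits this rule is named. Onecut1, Reln and the stellate cell markers that did not pass the test were named after their values had been seen. The members and lists were chosen with earlier results of these data known. The code was tested on simulated counts. Replicate livers of a genotype differed by more than sampling noise (chi-square per gene 26.9 to 151), and all 6 were kept as separate samples.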

Additional observations from a re-analysis of the deposited data

How the results depend on the processing

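Of the 10 Notch genes, 4 to 8 were called lower under the alternatives and 0 higher: 7 without TMM and with upper-quartile scaling, 4 with ERCC scaling, 5 without a filter, 5 with the replicate block, and 6 with DESeq2, limma-voom, dispersions without robust estimation and at least 10 counts in every sample. Leaving out each liver gave 5 to 8. Notch3, Notch4 and Heyl were called in all 15 alternatives, Jag2 in all 14 that tested it, Jag1 in 14 and Hey1 in 8. The median of the 10 genes ranged from -1.45 to -0.72. Over all genes, 4923 were lower and 539 higher without TMM, and 107 were higher with ERCC scaling; leaving out each liver gave 1621 to 3076 lower and 805 to 2521 higher. Of the other pathway genes, 21 were lower and 1 higher without TMM, 1 was higher with upper-quartile scaling, 0 with ERCC scaling, 1 with the replicate block and 5 with DESeq2, and 1 to 4 with each liver left out.

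Signs turned in the following. Notch1 was at 0.13 without fl/fl mouse 1, 0.18 without HKO mouse 1 and 0.02 without HKO mouse 2, a range of -0.40 to 0.18 with each liver left out. Without TMM, Rfng was at -0.20 and Ncor1 at -0.0293. With ERCC scaling, Rfng was at -0.50, Psen2 at -0.20, Furin at -0.22, Ncor1 at -0.29, Asgr1 at -0.00587, Ttr at -0.0550, Apob at -0.0655, Alb at -0.26 and Stab2 at -0.15, the hepatocyte ratio was 0.881 and the endothelial ratio 0.680, and without TMM the endothelial ratio was 0.814. The change of Notch3 minus Notch4 was 0.00492 without fl/fl mouse 1, and that of Hes1 minus Hey1 was -0.18 without fl/fl mouse 1 and -0.15 without HKO mouse 3, up to 0.30 with each liver left out. The causes were not tested.

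No pairing by replicate number was seen: deviations of same-numbered livers correlated at -0.0473, 0.00439 and -0.0725. With 3 livers a group, this cannot show that same-numbered livers shared nothing. With the replicate block, 2187 genes were lower and 1397 higher. Depth limits Jag2 most, with 9 to 22 counts in HKO livers, and 3 mice a group limit every test.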
